A study of Mus musculus with 8 samples.

Results

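The 40 genes described here encode the machinery of DNA replication and the enzymes that supply its nucleotides. They were chosen by gene name: every array probe whose gene name was 1 of the 40 was taken, whatever its signal. All 40 were measured, out of 21806 genes that passed a filter on dim probes. The arrays carried 50 probes for them, of which 49 passed that filter, and 9 of the genes had several probes. RNA came from small intestine, called jejunum in the design text, and the mice were BALB/cA Jcl females, 8 weeks old. Before the carbon-ion beam they had received saline, the growth factor FGF1 (fibroblast growth factor 1) or the chimera FGF1/CPP-C by intraperitoneal injection, 12 h ahead in the case of FGF1/CPP-C, and the tissue was collected 4 h after exposure. The unirradiated group had saline and 0 Gy, and the other 3 groups had 8 Gy after saline, FGF1 or FGF1/CPP-C, each group with 2 arrays. Neither protein was measured without irradiation, and the 0 Gy arrays are the shared reference of all 3 irradiated groups, so comparisons with 0 Gy are not independent of each other.

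In a dividing cell, replication origins are first licensed: the origin recognition complex, Cdc6 and Cdt1 load the ring-shaped Mcm helicase onto DNA, and geminin later blocks Cdt1 so that loading happens once per cycle. Cdc45 and the GINS complex then switch the helicase on, polymerases copy the strands behind it with the sliding clamp PCNA, and Fen1 and DNA ligase 1 join the fragments of the lagging strand. Ribonucleotide reductase, thymidylate synthase and thymidine kinase keep up the deoxynucleotide pools. In the small intestine this machinery is used mainly by the dividing cells of the crypts, and many of its genes are known targets of the E2F transcription factors.

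The arrays were comparable in brightness: the 75th percentile of the processed signal lay between 1712 and 2131 intensity units, and the share of probes well above background ran from 66.9% to 71.1%. Values below are log2 of the processed signal minus the array's own 75th percentile, so that 0 is the brightness of that percentile, and a difference of 1 is a doubling. Slide 1 carried the first replicate of every group and slide 2 the second. Nothing in the labels ties the arrays to separate animals, so p-values measure only the spread between arrays, which may be technical. On 3 arrays, namely replicate 1 of 0 Gy saline, replicate 2 of 8 Gy saline and replicate 1 of 8 Gy FGF1, the median of 11 stomach antrum markers was 2.74, 4.06 and 2.81, against -5.38 to 0.69 on the other 5. The summed normalised signal of these markers was 1190, 1233 and 1046 there, but also 830 on replicate 2 of 0 Gy saline, 460 on replicate 1 of 8 Gy saline and 451 on replicate 2 of 8 Gy FGF1, while both FGF1/CPP-C arrays had 3.25 and 1.84. Antrum transcripts were thus on all 6 arrays outside the FGF1/CPP-C group, where 11 of 11 markers were well above background, so their near absence and that treatment cannot be told apart. Leaving out the 3 arrays with the highest medians, as was done below, lowers this signal in the other groups and does not remove it. Replicate 1 of 0 Gy saline and replicate 2 of 8 Gy saline also had pancreatic acinar markers at a median of 5.32 and 2.80, against -4.78 to -1.87 elsewhere. Absorptive enterocyte markers were bright on all 8 arrays, with medians from 6.17 to 7.03. In whole tissue, fewer cells of a type and less RNA per cell cannot be told apart.

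The promoters of 4 members are printed because 3 of these genes, Rrm2, Cdt1 and Cdc6, are those that passed the test below. The fourth, Mcm6, had the lowest log2 fold change of the 40 over all irradiated arrays. Its promoter held the most matches to an E2F motif among the members whose promoter was available. Each line gives the 250 bases before the RefSeq start site (build GRCm38.p6), 5′ to 3′ on the gene's strand. Capitals mark matches to the E2F motif (TTTCCCGC, TTTCGCGC, TTTGCCGC or TTTGGCGC) or to the CCAAT box (CCAAT), on either strand.
Rrm2, chr12:24708004-24708253, + strand: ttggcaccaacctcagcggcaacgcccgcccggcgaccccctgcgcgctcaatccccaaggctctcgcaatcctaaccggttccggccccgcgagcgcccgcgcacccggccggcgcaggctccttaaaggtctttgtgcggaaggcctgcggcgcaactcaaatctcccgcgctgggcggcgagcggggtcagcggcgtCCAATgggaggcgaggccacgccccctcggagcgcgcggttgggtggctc
Cdt1, chr8:122567765-122568014, + strand: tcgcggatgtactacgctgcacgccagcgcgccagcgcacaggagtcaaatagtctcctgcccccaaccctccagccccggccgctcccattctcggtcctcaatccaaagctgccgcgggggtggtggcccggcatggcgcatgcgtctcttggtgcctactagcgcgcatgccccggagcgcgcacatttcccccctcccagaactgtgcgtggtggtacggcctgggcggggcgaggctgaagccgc
Cdc6, chr11:98907901-98908150, + strand: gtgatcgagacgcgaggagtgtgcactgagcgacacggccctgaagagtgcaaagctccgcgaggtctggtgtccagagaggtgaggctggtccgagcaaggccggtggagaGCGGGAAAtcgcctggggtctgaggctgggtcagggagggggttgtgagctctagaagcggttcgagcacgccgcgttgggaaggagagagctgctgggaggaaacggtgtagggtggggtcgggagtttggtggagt
Mcm6, chr1:128359706-128359955, - strand: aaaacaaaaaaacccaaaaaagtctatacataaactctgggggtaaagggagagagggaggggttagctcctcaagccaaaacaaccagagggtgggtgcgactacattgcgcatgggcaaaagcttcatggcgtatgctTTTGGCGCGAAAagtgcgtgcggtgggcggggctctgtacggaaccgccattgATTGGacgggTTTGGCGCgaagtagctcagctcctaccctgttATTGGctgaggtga

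Across the group, a RefSeq promoter window of 300 bases, 250 before and 50 after the start site, was found for 32 of the 40 members. The E2F motif stood in a window of 13 of these 32 genes, or 40.6%, while 704 of all 27025 genes of the table, or 2.60%, had it. Mcm6 had 3 matches, beginning 110, 106 and 47 bases before the start, the first 2 of which overlap. Cdc6 had 1 match at 138 bases before the start, Cdt1 had its only match 32 bases after the start and so outside the printed stretch, and Rrm2 had none in the window. The CCAAT box stood in a window of 21 of the 32 genes (65.6%, against 41.1% of all genes). The CHR motif (TTTGAA or TTCGAA), a short element of many mitosis genes, stood in 6 of the 32 (18.8%, against 21.7%). Of 26 mitosis genes with a window, 19 (73.1%) held the CHR motif, 22 (84.6%) the CCAAT box and 1 the E2F motif. A list of other replication genes, outside the 40, had 35 genes with a window. Of these, 13 (37.1%) held the E2F motif, 16 (45.7%) the CCAAT box and 8 (22.9%) the CHR motif. Such matches describe letters only and show no binding.

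After irradiation, Rrm2, a subunit of ribonucleotide reductase, and the licensing factors Cdt1 and Cdc6 rose, and the other 37 members did not pass the test. This compares all 6 irradiated arrays with the 2 unirradiated ones (limma, adjusted p under 0.05 over all genes). Of all genes, 2.01% passed in this comparison, and 1.17% of all genes passed with a higher signal. The median log2 fold change of the 40 members was 0.17, beside -0.05 over all genes, and 30 of the 40 were above 0, beside 42.2% of all genes. At an unadjusted p under 0.05, 16 members were higher and 1, Mcm6, was lower, while 8.85% of all genes were higher and 11.1% lower by that measure. In 11 of the 39 members with a signal on every array, all irradiated arrays lay above both unirradiated ones (10.4% of all genes), and in no member did all lie below (12.2%).

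**Figure D1:**
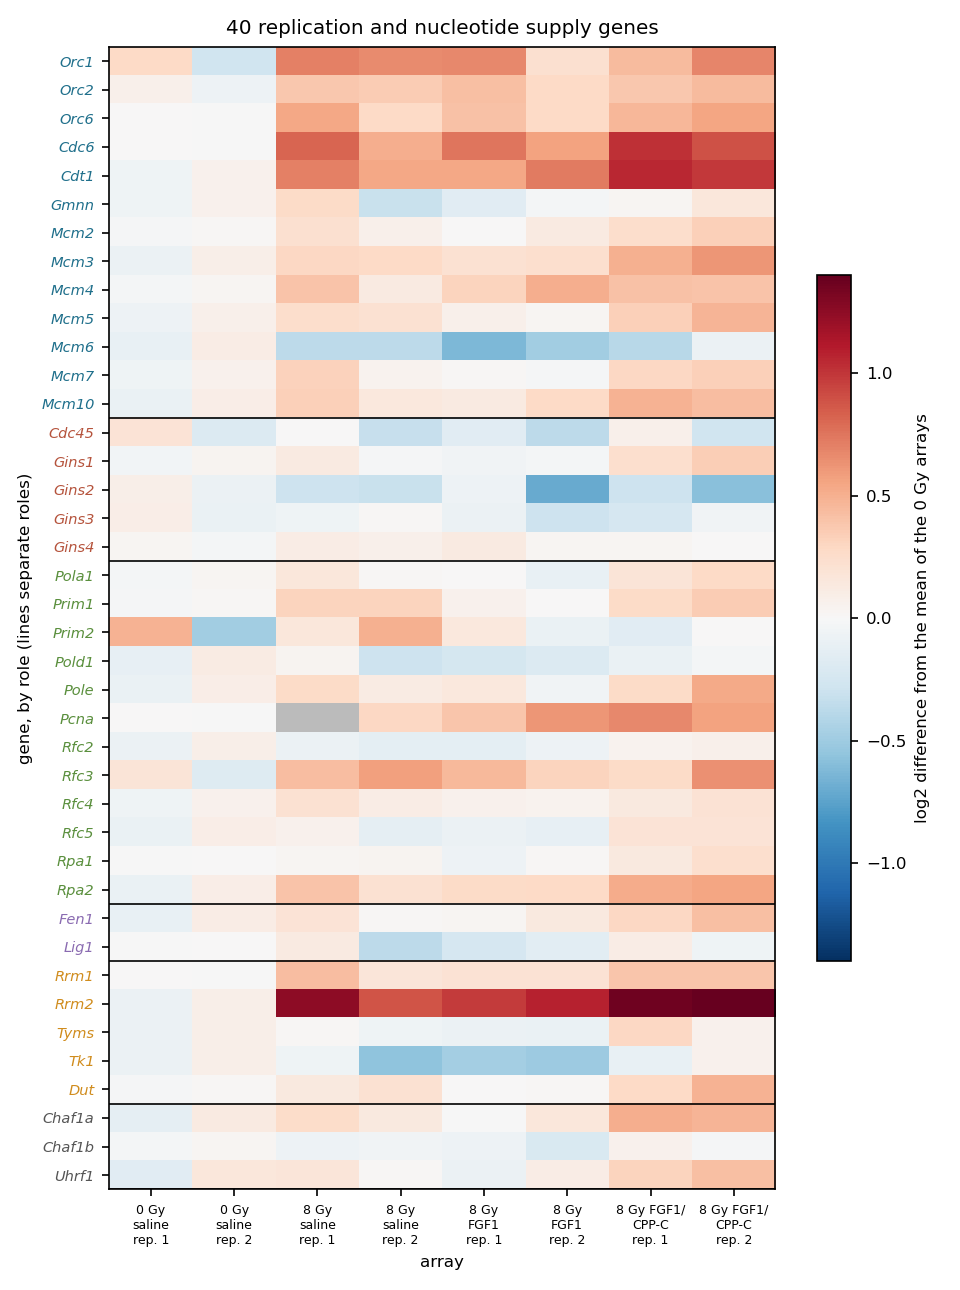
Each row is 1 of the 40 genes, grouped by role, and each column 1 of the 8 arrays; colour gives the log2 difference from the mean of the 0 Gy arrays, and grey marks a spot left out. Rrm2 is the darkest red row across the 6 irradiated arrays, and Cdt1 and Cdc6 are red on all 6. Mcm6 is blue on the irradiated arrays except replicate 2 of FGF1/CPP-C, where it is close to the 0 Gy mean.

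Among the licensing genes, Cdt1, the loading factor that geminin holds back, had log2 signals of 0.92 and 1.05 on the unirradiated arrays. It stood at 1.69 and 1.52 after 8 Gy with saline, at 1.53 and 1.72 with FGF1, and at 2.04 and 1.98 with FGF1/CPP-C. No irradiated array reached down to the unirradiated range, and the FGF1/CPP-C arrays lay above the other 4 irradiated ones. Over all irradiated arrays Cdt1 was 1.70-fold higher (log2 fold change 0.76 ± 0.10 SE; limma, adjusted p = 0.0253). Cdc6, the ATPase that works with Cdt1 in loading the helicase, was dim: -4.60 and -4.61 unirradiated, -3.79 and -4.10 with 8 Gy and saline, -3.85 and -4.04 with FGF1, and -3.58 and -3.72 with FGF1/CPP-C. Again the ranges did not overlap, and Cdc6 was 1.69-fold higher (log2 0.76 ± 0.11 SE; limma, adjusted p = 0.0383). With normexp background correction the log2 fold change of this dim gene was 0.34 and did not pass. A second Cdc6 probe gave 0.49 ± 0.22 SE and did not pass (limma, adjusted p = 0.290).

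The other licensing genes were shifted less. The origin recognition subunits Orc1, Orc2 and Orc6 had log2 fold changes of 0.57, 0.38 and 0.42 and did not pass (limma, adjusted p = 0.184, 0.0859 and 0.0938). For Orc2 and Orc6 every irradiated array was above both unirradiated ones, and Orc1, one of the dimmest members, overlapped. Of the 6 subunits of the Mcm2 to Mcm7 ring, 5 were above 0, from 0.16 (Mcm7) to 0.36 (Mcm4), and Mcm10, a scaffold of the starting fork, was at 0.30. Mcm6 went the other way: its log2 signal was 2.10 and 2.31 unirradiated, 1.84 and 1.83 with saline and 8 Gy, 1.57 and 1.72 with FGF1, and 1.82 and 2.12 with FGF1/CPP-C. The highest irradiated array thus overlapped the unirradiated pair, and the log2 fold change of -0.38 ± 0.12 SE did not pass (limma, adjusted p = 0.148). Geminin (Gmnn), the inhibitor of Cdt1, was at -0.01 ± 0.16 SE, so its interval from -0.40 to 0.39 includes changes in either direction. As a role, with the fork scaffold Mcm10 counted among them, 11 of the 13 licensing genes were above 0, with a median of 0.36.

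**Figure D2:**
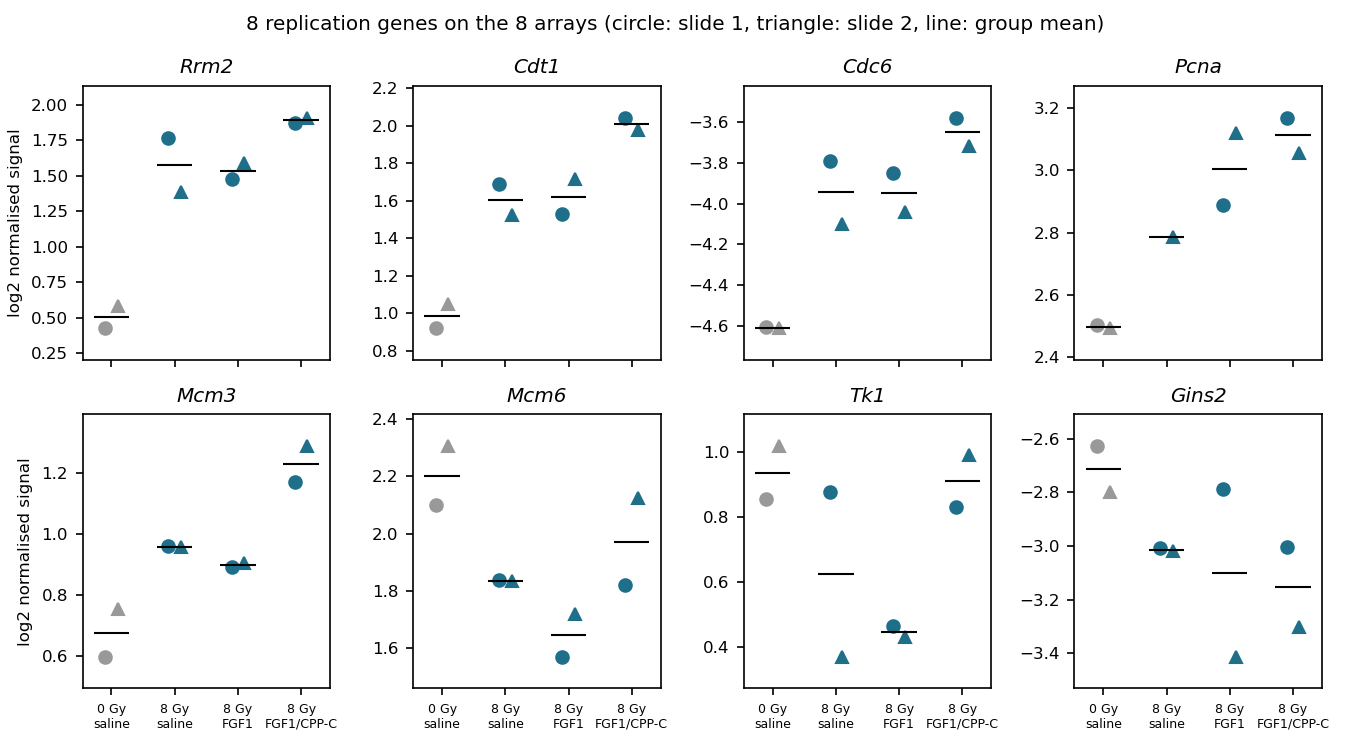
Log2 normalised signal of 8 members (y axis, a separate scale for each gene) in the 4 groups (x axis), with circles for slide 1, triangles for slide 2 and a line for the group mean; Pcna lacks 1 array. Rrm2, Cdt1, Cdc6 and Mcm3 lie higher on every irradiated array than on either unirradiated one, whereas Mcm6 and Gins2 have lower group means.

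The helicase activation genes showed no such shift. Of Cdc45 and the 4 GINS subunits, 2 of 5 were above 0, with a median of -0.12, and none passed in any of the 7 comparisons. Gins2 had the lowest value of them, at -0.38 ± 0.18 SE (limma, adjusted p = 0.314), and its arrays spread from -3.41 to -2.63. Gins4 spanned only 0.15 on the log2 scale over all 8 arrays, the narrowest range of the 40 members.

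Of the 12 genes for polymerases, clamp and single-strand binding, 10 were above 0, with a median of 0.11, and none passed. Pcna, the sliding clamp and also a known p53 target, was at 2.50 and 2.49 unirradiated, 2.78 on the 1 usable 8 Gy saline array, 2.89 and 3.12 with FGF1 and 3.17 and 3.06 with FGF1/CPP-C. The spot of replicate 1 of 8 Gy saline bore an outlier mark and was left out of the fit. All 5 irradiated values lay above the unirradiated pair, and the log2 fold change was 0.47 ± 0.10 SE (limma, adjusted p = 0.0987). Rfc3, a subunit of the clamp loader, and Rpa2, a subunit of the single-strand binding protein, were at 0.45 ± 0.15 SE and 0.37 ± 0.09 SE (limma, adjusted p = 0.175 and 0.106), without overlap between irradiated and unirradiated arrays. Prim1, the catalytic primase subunit, was at 0.22, and the polymerase subunits Pola1 and Pold1 were at 0.09 and -0.14. Prim2, well above background on 5 of the 8 arrays, had a standard error of 0.26 and could not be read in either direction.

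Pole, the catalytic subunit of the leading strand polymerase, had 3 probes that disagreed. The brightest, at chr5:110766375-110766434 (mm9, + strand), gave a log2 fold change of 0.22 ± 0.12 SE. The probe at chr5:110720154-110720213 gave -0.36 ± 0.14 SE, and the one at chr5:110741964-110742023 gave -1.04 ± 0.18 SE (limma over all kept probes, adjusted p = 0.0514). The value of Pole therefore depended on which probe was read.

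In lagging strand joining, the flap nuclease Fen1 was at 0.18 ± 0.10 SE and DNA ligase 1 (Lig1) at -0.10 ± 0.14 SE, both with overlapping arrays. Among the 3 chromatin genes, the histone chaperone subunits Chaf1a and Chaf1b were at 0.25 and -0.06, and Uhrf1, which helps to copy DNA methylation, was at 0.16. None of these 5 genes passed the test.

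Nucleotide supply held the largest difference of the 40. Rrm2, the small subunit that limits ribonucleotide reductase, had log2 signals of 0.43 and 0.59 unirradiated, 1.76 and 1.39 with 8 Gy and saline, 1.48 and 1.59 with FGF1, and 1.87 and 1.91 with FGF1/CPP-C. Every irradiated array exceeded both unirradiated arrays by more than the spread within any group. Rrm2 was 2.23-fold higher (log2 1.16 ± 0.12 SE; limma, adjusted p = 0.0148). Rrm1, the large subunit of the same enzyme, was at 0.30 ± 0.09 SE without overlap (limma, adjusted p = 0.158). Rrm2b, the p53-dependent alternative small subunit and not one of the 40, was at -0.02 ± 0.20 SE. Thymidine kinase 1 (Tk1), which salvages thymidine, was at -0.28 ± 0.15 SE, with 0.85 and 1.02 unirradiated, 0.88 and 0.37 with saline and 8 Gy, 0.46 and 0.43 with FGF1, and 0.83 and 0.99 with FGF1/CPP-C. The FGF1 pair of Tk1 lay below the unirradiated pair and the FGF1/CPP-C pair overlapped it. Thymidylate synthase (Tyms) was at 0.02 and dUTPase (Dut) at 0.19, and neither passed.

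**Figure D3:**
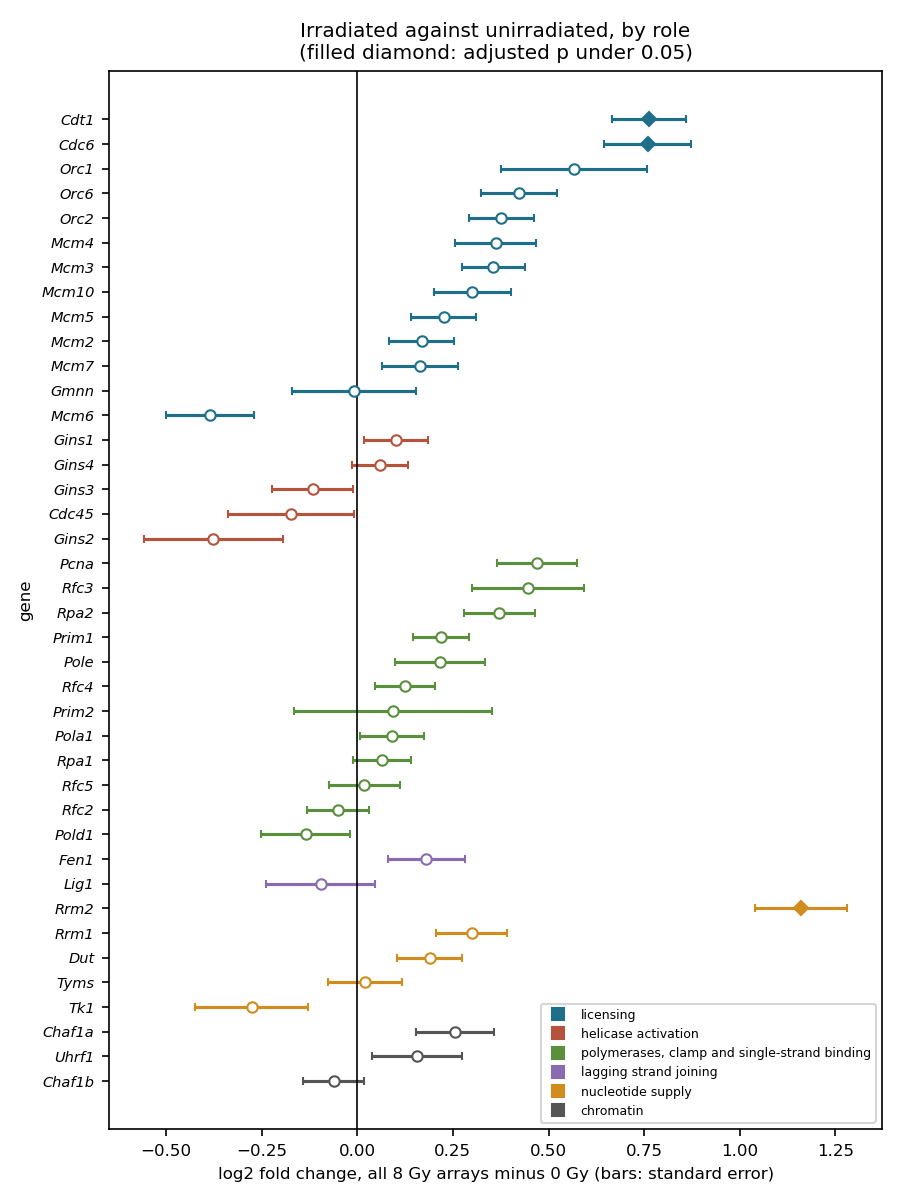
Log2 fold change of each of the 40 genes, all irradiated arrays minus the 0 Gy arrays (x axis), ordered within each role, with bars of 1 standard error; filled diamonds passed the test. Only the 3 diamonds, Rrm2, Cdt1 and Cdc6, passed, and the licensing genes lie mostly right of 0 while the helicase activation genes lie on both sides.

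In 8 Gy and saline alone against 0 Gy, no member passed in limma, although 11 were higher and 1 lower at an unadjusted p under 0.05, while 0.445% of all genes passed, and 5.02% and 6.60% were higher and lower by the unadjusted p. In that comparison Rrm2 was at 1.07 ± 0.15 SE, Cdc6 at 0.66 ± 0.14 SE and Cdt1 at 0.62 ± 0.12 SE (limma, adjusted p = 0.0588, 0.165 and 0.137). The median of the members was 0.17 (all genes -0.04), at 0.26 within slide 1 and 0.05 within slide 2, and 28 of the 40 were above 0 (42.8% of all genes). Leaving out replicate 1 of 8 Gy saline gave a median of 0.09, and leaving out replicate 1 of 0 Gy saline gave 0.11. In 21 of 39 members both irradiated arrays lay above both unirradiated ones and in 4 below, beside 16.2% and 20.8% of all genes. Leaving out either 0 Gy array, either FGF1 array or either FGF1/CPP-C array brought the calls among all irradiated arrays from 3 to 0, while leaving out either 8 Gy saline array kept 3. Without the 3 arrays of highest antrum medians no member passed, and the log2 fold changes were 1.16 for Rrm2, 0.76 for Cdt1 and 0.78 for Cdc6, about as large as with them. Over all irradiated arrays, all 11 antrum markers and all 9 T cell and intraepithelial lymphocyte markers had log2 fold changes below 0. The irradiated groups differed in this. The antrum sum was 1190 and 830 unirradiated, 460 and 1233 with 8 Gy and saline, and 1046 and 451 with FGF1. With FGF1/CPP-C it was 3.25 and 1.84. The T cell sum was 8.95 and 10.7 unirradiated, and 7.61 and 5.04 with 8 Gy and saline. It was 6.79 and 6.57 with FGF1, and 10.1 and 9.65 with FGF1/CPP-C. The part of these markers in the result was not tested. With the slide as a block, Cdt1 lost its call (limma, adjusted p = 0.0522), and Rrm2 and Cdc6 kept theirs.

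The probes for Rrm2, Pcna and Mcm7 carry a caution about identity. The array files place the Rrm2 probe at chr19:35175128-35175187 (mm9), the Pcna probe at chr19:9358883-9358942 and the Mcm7 probe at chr16:53986163-53986222, whereas the genes lie on chromosomes 12, 2 and 5. Whether a near-identical copy elsewhere in the genome shares these signals was not tested. The Cdt1 and Cdc6 probes lie on the chromosomes of their genes, at chr8:125096893-125096952 and chr11:98782986-98783045.

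FGF1 with 8 Gy, set against 8 Gy and saline, gave values that leaned slightly lower. No member passed in limma, and no gene of all tested did (0%). At an unadjusted p under 0.05, 1 member, Prim1, was lower and none was higher, beside 0.946% and 0.693% of all genes. The median of the members was -0.09 (all genes -0.01), and 4 of the 40 were above 0, beside 46.9% of all genes. The size of this lean depended on single arrays: without replicate 1 of 8 Gy saline, 18 of the 40 were above 0 with a median of -0.01, without replicate 2 of 8 Gy saline it was 1 of 39 with -0.16, and without replicate 1 of FGF1 it was 8 of 40 with -0.09. The 4 exceptions were Pcna at 0.22 ± 0.15 SE, from 1 usable 8 Gy saline array, Mcm4 at 0.15 ± 0.13 SE, Cdt1 at 0.02 and Rfc2, a clamp loader subunit, at 0.01. The shift was at -0.15 within slide 1 and -0.01 within slide 2, so most of it lay on slide 1. Both FGF1 arrays lay below both 8 Gy saline arrays in 14 members and above them in none, beside 10.6% and 7.46% of all genes.

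FGF1 with 8 Gy against 0 Gy had no member called by limma, beside 0.817% of all genes, with 7 members higher and 2 lower at an unadjusted p under 0.05 (6.95% and 9.03% of all genes). In 12 members both FGF1 arrays lay above both unirradiated ones and in 5 below, beside 22.2% and 29.6% of all genes, and 25 of the 40 were above 0 (41.1%), with a median of 0.04. Without replicate 1 of 0 Gy saline the median turned to -0.02 with 17 of 40 above 0, without replicate 2 it was 0.07, and without replicate 1 or replicate 2 of FGF1 it was 0.02 or 0.03. Rrm2 was at 1.03, Cdc6 at 0.66 and Cdt1 at 0.64, close to their values in 8 Gy and saline. Mcm6 and Tk1 were the 2 lower ones, at -0.56 ± 0.14 SE and -0.49 ± 0.18 SE (limma, adjusted p = 0.144 and 0.272).

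The median of the replication genes was highest in the FGF1/CPP-C arrays. Relative to the mean of the 0 Gy arrays, the median of the members was 0.27 and 0.35 there, 0.21 and 0.09 on the 8 Gy saline arrays and 0.03 and 0.02 on the FGF1 arrays. Not every member followed. Mcm6, Tk1, Pold1, Cdc45, Gins2 and Gins3 had their highest group mean at 0 Gy. For Orc1, Gins4, Prim2 and Rfc3 it was highest with 8 Gy and saline, and for Mcm4 with FGF1. Against 0 Gy, Rrm2, Cdt1 and Cdc6 passed at 2.61-fold, 2.04-fold and 1.94-fold (limma, adjusted p = 0.0240, 0.0240 and 0.0380), where 1.75% of all genes passed and 1.02% in that direction. The Cdc6 value rests on its brightest probe. Its second probe read -4.86 and -4.38 unirradiated and -4.40 and -3.91 with FGF1/CPP-C, with overlap. With 8 Gy and saline that probe read -4.31 and -3.75. At an unadjusted p under 0.05, 22 of the 40 members were higher and none lower, beside 9.89% and 11.6% of all genes. In 27 members both arrays lay above both unirradiated ones and in 1 below (28.5% and 31.8% of all genes). The median was 0.31 (all genes -0.03), and 33 of the 40 were above 0 (45.7% of all genes). Mcm3, Rpa2 and Pcna followed at 0.56, 0.53 and 0.62 without passing (limma, adjusted p = 0.0594, 0.0818 and 0.0856). Again leaving out either array of 0 Gy, FGF1 or FGF1/CPP-C brought the 3 calls to 0, as did a fit to these 2 groups alone, and without a filter on dim probes 1 call was left. This comparison shares its 0 Gy arrays with those above. Markers moved with it too: the antrum sum was 1190 and 830 unirradiated against 3.25 and 1.84 with FGF1/CPP-C, with 0 of 11 markers above 0. The smooth muscle sum of 8 markers was 128 and 118 against 86.4 and 81.0, with 0 of 8 above 0. The Paneth cell sum was 113 and 167 against 205 and 192, with 5 of 5 above 0. The crypt base stem cell sum of 10 markers was 26.1 and 24.5 against 22.7 and 19.8. For the 12 absorptive enterocyte markers the sum was 1208 and 1399 against 1660 and 1558. The part of these markers in the higher replication genes was not tested.

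Against 8 Gy and saline, FGF1/CPP-C had no member called by limma, beside 0.00918% of all genes, with 2 members, Cdt1 and Mcm3, higher at an unadjusted p under 0.05 (5.78% of all genes higher, 5.49% lower). The median was 0.14 (all genes 0.01), and 34 of the 40 were above 0 (52.5% of all genes). Without replicate 2 of 8 Gy saline the median was 0.07 with 26 of 39 above 0, without replicate 1 it was 0.22 with 33 of 40, and on the series matrix values it was 0.07 with 29 of 39. Within slide 1 the median was 0.02 and within slide 2 it was 0.27. Cdt1 was at 0.41 ± 0.12 SE and Mcm3 at 0.27 ± 0.10 SE (limma, adjusted p = 0.384 and 0.419), both without overlap. In 20 members both FGF1/CPP-C arrays lay above both 8 Gy saline arrays and in 2 below, beside 20.2% and 22.2% of all genes. Markers differed here too: the antrum sum was 460 and 1233 with 8 Gy and saline against 3.25 and 1.84 with FGF1/CPP-C. The Paneth cell sum was 144 and 112 against 205 and 192, and the T cell sum 7.61 and 5.04 against 10.1 and 9.65. The goblet cell sum overlapped, at 958 and 912 against 983 and 862. The part of these markers in this comparison was not tested.

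Between the 2 growth factor groups, the members leaned one way on both slides. FGF1/CPP-C minus FGF1 had no member called by limma, beside 0.0138% of all genes. At an unadjusted p under 0.05, 13 members were higher and none lower, beside 5.13% and 3.55% of all genes. The median was 0.24 (all genes 0.02), with 0.24 within slide 1 and 0.27 within slide 2, and 36 of the 40 were above 0 (53.6% of all genes). Both FGF1/CPP-C arrays exceeded both FGF1 arrays in 30 members (24.5% of all genes), and the reverse held in none (20.9%). Over the 18 alternatives between 33 and 37 members were above 0.

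The members with the smallest p there came from several roles. Dut was at -1.51 and -1.50 with FGF1 and at -1.23 and -1.03 with FGF1/CPP-C, and Mcm5 at 0.12 and 0.08 against 0.39 and 0.54. Chaf1a was at -0.92 and -0.75 against -0.40 and -0.44, and Tk1 had the largest difference, 0.46 ± 0.18 SE. None of these pairs overlapped, yet the differences were small, with Dut 1.30-fold, Mcm5 1.28-fold, Chaf1a 1.33-fold and Tk1 1.38-fold higher (limma, adjusted p = 0.418, 0.433, 0.455 and 0.558). On the brightest probe of each gene, all 5 nucleotide supply genes and all 3 chromatin genes were higher in both FGF1/CPP-C arrays than in either FGF1 array. For Chaf1b this depended on the probe. Its second probe read -0.48 and -0.63 with FGF1 and -0.62 and -0.38 with FGF1/CPP-C, with overlap. The members nearest to 0 were the licensing gene Mcm4 at -0.01 and, in helicase activation, Gins2 at -0.05, Gins3 at 0.04 and Gins4 at -0.06. Uhrf1 was at 0.36 ± 0.14 SE, and its second probe gave 0.71 ± 0.11 SE (limma over all kept probes, adjusted p = 0.194).

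**Figure D4:**
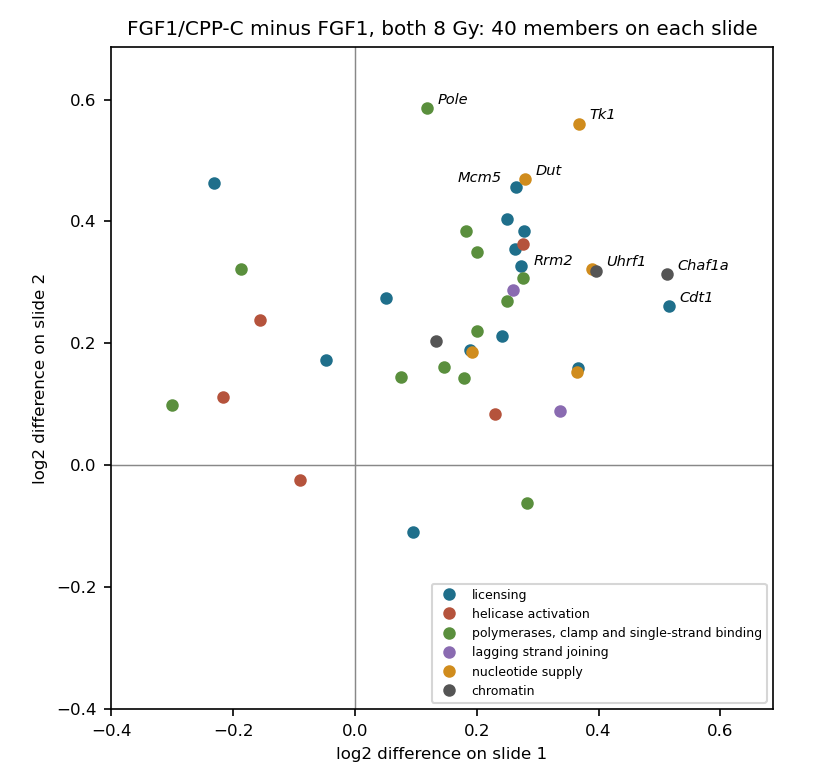
Log2 difference of FGF1/CPP-C minus FGF1, both at 8 Gy, on slide 1 (x axis) and slide 2 (y axis) for the 40 members, coloured by role and named where farthest from 0. Most points lie above 0 on both axes, around the medians of 0.24 and 0.27, and 32 of the 40 have the same sign on both slides.

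Markers of several cell types moved with this comparison. The summed normalised signal of 11 stomach antrum markers was 1046 and 451 in the FGF1 arrays and 3.25 and 1.84 in the FGF1/CPP-C arrays. The absorptive enterocyte sum of 12 markers was 1217 and 1370 against 1660 and 1558, with 10 of 12 higher, and the Paneth cell sum of 5 markers was 137 and 140 against 205 and 192, with 5 of 5 higher. Of 9 T cell and intraepithelial lymphocyte markers all 9 were higher, with sums of 6.79 and 6.57 against 10.1 and 9.65. The 8 B cell and germinal centre markers summed to 1.75 and 1.47 against 1.84 and 5.60, so that 1 FGF1/CPP-C array stood apart. Of 10 crypt base stem cell markers 2 were higher. The part of these cell types in the difference of the replication genes was not tested. Leaving out replicate 1 of FGF1, the one with more antrum transcripts, gave a median of 0.25 with 37 of 40 members above 0, but the FGF1 array that is left still had an antrum sum of 451, so the antrum difference was not removed. Leaving out the FGF1/CPP-C array with high B cell markers gave 0.21 with 34 of 40.

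Genes around the 40 were read from lists that were drawn up by function, with earlier results of these data known. Of 41 other replication genes, 29 were above 0 over all irradiated arrays and 4 passed, all higher: Clspn (0.83 ± 0.09 SE), a checkpoint adaptor at the fork, Recql4 (0.74 ± 0.08 SE), a helicase of replication initiation, Msh6 (0.72 ± 0.09 SE), a mismatch repair protein, and Timeless (0.55 ± 0.08 SE), a fork protection factor (limma, adjusted p = 0.0161, 0.0148, 0.0238 and 0.0347). Of 30 other nucleotide synthesis genes, 16 were above 0 and none passed, with 6 higher and 3 lower at an unadjusted p under 0.05. The list median was 0.07 for other replication genes and 0.00 for other nucleotide synthesis genes.

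Regulators of entry into S phase were mixed. Of 25 measured, 18 were above 0. The CDK inhibitor Cdkn1a (0.97 ± 0.10 SE) and the repressor E2f7 (0.88 ± 0.11 SE) rose and cyclin A2 (Ccna2, -0.77 ± 0.11 SE) fell (limma, adjusted p = 0.0143, 0.0234 and 0.0350). E2f1, an activating E2F, was at -0.16 ± 0.09 SE and cyclin E1 (Ccne1) at 0.53 ± 0.11 SE, and neither passed (limma, adjusted p = 0.426 and 0.0775).

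Mitosis genes went the other way from the replication genes. None of the 27 measured was above 0, 18 passed as lower, and their median was -0.77 beside the 0.17 of the 40 members. Nek2, Cenpa and Ccnb1 were at -1.19, -1.14 and -1.11 (limma, adjusted p = 0.00575, 0.00731 and 0.0101). Between FGF1/CPP-C and FGF1 both lists leaned the same way: 24 of the 27 mitosis genes were above 0 with a median of 0.35, as 36 of the 40 members were with a median of 0.24, and no gene of either list passed.

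**Figure D5:**
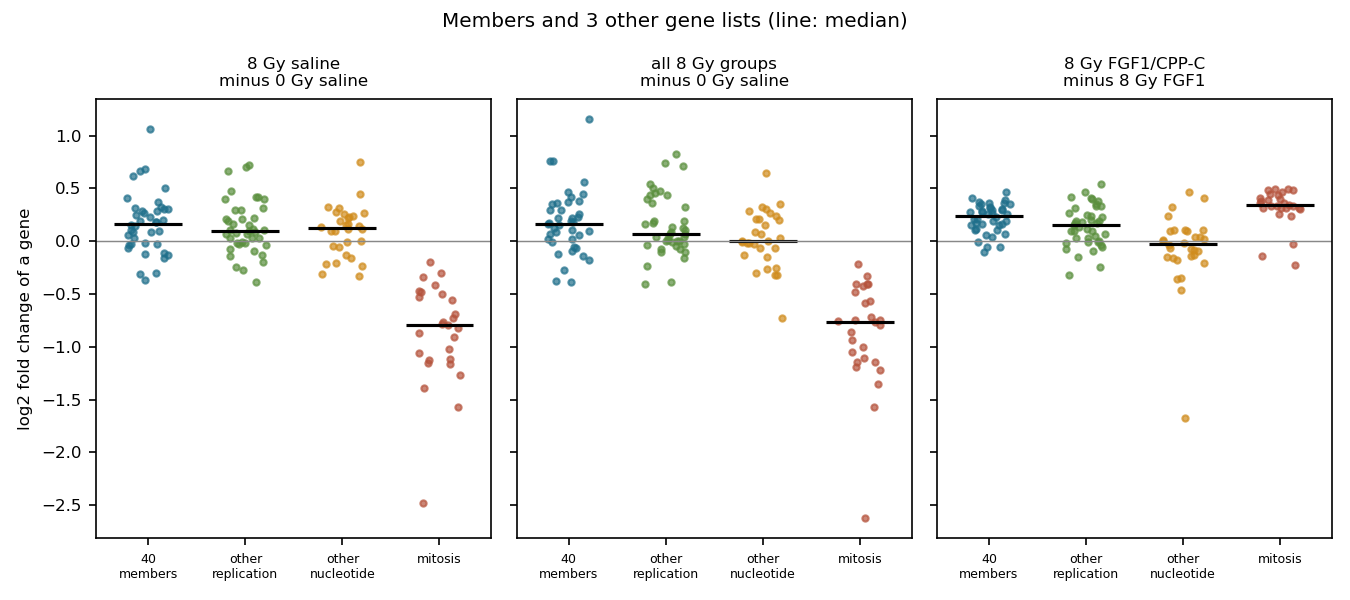
Log2 fold change of each gene (y axis) in the 40 members and 3 other lists (x axis) for 8 Gy saline minus 0 Gy, all 8 Gy groups minus 0 Gy, and FGF1/CPP-C minus FGF1 at 8 Gy, with a line at each median. Mitosis genes all lie below 0 against the unirradiated arrays, at a median of -0.77 over all irradiated arrays, where the members' median is 0.17.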

How the data were processed

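Expression was measured on 8 Agilent 1-colour arrays, 2 for each of 4 groups. Per the file headers, the deposited processed signal is an intensity on a linear scale, read with Agilent Feature Extraction 9.5.3.1, background-subtracted and not scaled between arrays, and probe coordinates are mm9. Any scaling between arrays by the authors is not given in these sources. The deposited matrix of the series holds the same intensities for part of the probes: per array, 375 to 878 probes well above background had no value there. Values were turned into log2, with the array's 75th percentile subtracted and a floor of -7. Control spots (1377) and outlier marks were left out, spots of a probe averaged, probes kept where both arrays of any 1 group were well above background (27469), and the brightest probe taken per gene.

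Groups were compared with limma 3.58.1 (R 4.3.3), fitting 4 group means to all 8 arrays with 4 residual degrees of freedom, in 7 comparisons with Benjamini-Hochberg adjustment over all genes. With 2 arrays a group, their number limits the precision. The fit was tested on simulated data. Promoters were searched and figures drawn in Python 3.11.15 with pandas 2.3.3 and matplotlib 3.10.9. All 40 members could be named, with per-array values for those of smallest p, widest range or highest level and at least 1 of each role. Other genes were named only from fixed lists. The members and lists were chosen with earlier results of these data known. The 18 alternatives concern normalisation, background, filter, probes, fit and arrays. Same-numbered arrays share a slide, per the file headers. Across genes, the deviations of same-numbered arrays from their group means correlated between pairs of groups at -0.52 to 0.54, so numbers were used as a block only as an alternative.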

Additional observations from a re-analysis of the deposited data

How the results depend on the processing

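With 2 arrays a group, calls among the members depended on the setting more than the fold changes did. In 8 Gy saline against 0 Gy the count of members called was 0 and became 1 under quantile normalisation, normexp background correction, a filter requiring all arrays well above background, and eBayes with trend and robust. In FGF1 against 0 Gy it was 0 and became 1 under quantile normalisation, normexp, the all-array filter and the mean of a gene's probes, and 2 under eBayes with trend and robust. In FGF1/CPP-C against 0 Gy it was 3 and became 1 with no filter on dim probes, 0 in a fit to the groups compared alone and 0 without the 3 arrays of highest antrum medians. For all irradiated arrays against 0 Gy it was 3 and became 0 without those 3 arrays. Leaving out 1 array in turn gave 0 to 3 members called in FGF1/CPP-C and in all irradiated arrays against 0 Gy, 0 to 1 in FGF1 against 0 Gy, and 0 in the other 4 comparisons. With the slide (the replicate number) as a block, 3 members were called in FGF1/CPP-C against 0 Gy, 2 in all irradiated arrays against 0 Gy, and 0 in the other 5. Rrm2, Cdt1 and Cdc6 kept their direction in all 18 alternatives of the 4 comparisons with 0 Gy: Rrm2 ranged from 1.08 to 1.24, Cdt1 from 0.70 to 0.83 and Cdc6 from 0.34 to 0.89 over all irradiated arrays. The cause of the changed counts was not tested. Settings that leave out arrays also leave fewer residual degrees of freedom, and the part of this in the counts was not tested. Signal over background limits Orc1, Prim2 and Cdc6, which are dim.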
